A study of Mus musculus with 15 samples.

Results

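The comparison set the 2 highest permethrin diets against the 2 lowest in mouse lung. It used 12 of the 15 arrays of the study: 6 from mice fed 2500 or 5000 ppm permethrin (the high side, 3 mice per diet) and 6 from mice fed 0 ppm (control) or 20 ppm (the low side, 3 mice per diet). Arrays were assigned by the diet in their labels, so no measured value chose them. All animals were females of the outbred stock Crlj:CD1(ICR), aged 11 weeks and fed for 7 days, and the diets differed only in the permethrin content that the labels state. The remaining 3 arrays, at 500 ppm, stayed outside the contrast and serve below as a check of where an intermediate diet lay. Whole lungs were measured, so a lower signal from fewer cells of a type and one from less RNA per cell cannot be told apart.

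The 6 low arrays all lay on slide 1 and the 6 high arrays all lay on slide 2, so slide and diet cannot be told apart within the 12 arrays. Only differences between arrays of the same slide are free of this: 5000 against 2500 ppm on slide 2, 20 ppm against control on slide 1, and mice 1 and 2 at 500 ppm, which lay on slide 1, against the low side. The third mouse at 500 ppm lay on slide 2, and its array stood apart, with 87.0% of probes well above background against 70.7% to 81.5% on the low side and 73.2% to 75.9% on the high side. Its median signal was 109 against 42.9 to 80.6 and 41.3 to 51.5, and its negative control mean 47.6 against 34.1 to 36.7 and 33.5 to 37.8. The scanner software flagged this array and that of 2500 ppm mouse 3 for evaluation. At 500 ppm a difference between slides cannot be told from a trait of this 1 array. Control mouse 1 and 20 ppm mouse 1 lay far from the other arrays on the first principal component of the 12 (33.6% of variance, scores -82.3 and -86.1 against 0.95 to 37.5), and 2500 ppm mouse 3 did so on the second (19.0%, score -76.8). That array also had the highest variation between replicate probes (a median coefficient of variation of 8.41% against 2.79% to 3.13% on the other 11). The mean scaled level of the 5 bright spike-in controls ran from 5.66 to 6.09 on the low side and from 5.40 to 5.97 on the high side. The lung label held on both sides: Sftpc, a surfactant protein of alveolar type 2 cells, had a median scaled log2 signal of 9.40 on the low side and 9.54 on the high side, and Scgb1a1, the secretoglobin of club cells, 9.66 and 9.88.

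Permethrin is a pyrethroid insecticide that holds voltage-gated sodium channels open and is broken down in mammals by ester cleavage and oxidation. Reactive compounds in a cell can modify Keap1, which otherwise marks the transcription factor Nrf2 for degradation. Nrf2 then pairs with small Maf proteins on antioxidant response elements and turns on genes that make glutathione, couple it to foreign molecules, reduce quinones and carbonyls and regenerate thioredoxin. In the airways, club cells are known for such metabolism of foreign compounds.

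Signals are given as scaled log2 values, in which 0 is the 75th percentile of an array. The level of 1 gene cannot be set against that of another, since probes differ in brightness. A feature here is a gene with a symbol, measured by 1 probe, or a probe without a symbol. Of 31334 features tested with limma, 83 (0.265%) differed between the sides at a Benjamini-Hochberg adjusted p under 0.05, 47 higher (0.15%) and 36 lower (0.115%) on the high diets. Their fold changes ran from 1.47 to 15.0 with a median of 2.08, and 76 of the 83 had sides that did not overlap. Over all features 324 (1.03%) had all 6 high arrays above all 6 low arrays, 175 (0.558%) had them all below, and the median difference was 0.09 log2. An unadjusted p under 0.05 was found for 2991 higher (9.55%) and 1349 lower features (4.31%). A symbol was known for 45 of the 83, of which 33 were higher and 12 lower.

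These counts depended on how slide and single arrays were treated. With slide as a random block over the 15 arrays 6 features passed, all higher: Nqo1, Gsta2, Gpx2, Gm10639 and 2 probes on chromosome 9 described below. Fitting slide as a fixed term leans entirely on the array of 500 ppm mouse 3, and then 82 were higher and 4025 lower. Without control mouse 1 and 20 ppm mouse 1 the count was 16, and leaving out 1 array at a time gave 38 (without 5000 ppm mouse 3) to 128 (without 2500 ppm mouse 3).

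**Figure D1:**
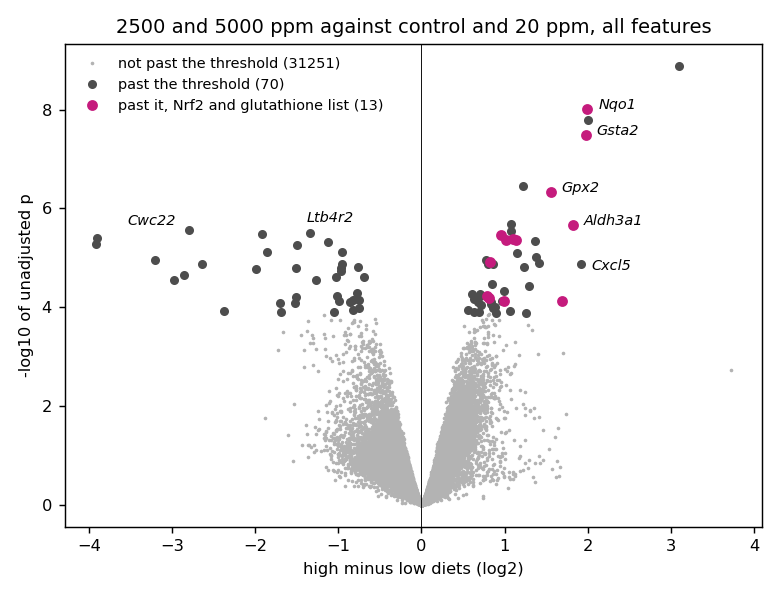
The difference between high and low diets (x axis, log2) is plotted against the unadjusted p (y axis, -log10 scale) for the 31334 features; dark points are past the adjusted threshold and pink points are the 13 of them on the Nrf2 and glutathione list. Every pink point lies to the right of 0, and the points furthest to the left lie at -3.91.

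Genes that Nrf2 is known to control made up the largest group of named genes that rose. Of 42 tested genes on the list of Nrf2 targets and glutathione enzymes, 13 rose, none fell and 29 did not pass, beside 0.15% of all features that rose. The median difference over the 42 was 0.43 log2, against 0.09 over all features, and 36 of them lay above 0. Earlier results on these arrays were known when the list was written, so its count is a description. The count was 3 with slide as a random block, 5 without control mouse 1 and 20 ppm mouse 1, and 8 to 13 with 1 array left out. Of the 13, Gclc, Txnrd1, Aox1, Osgin1, Gstm1 and Gsta3 are named here after their values were seen.

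Nqo1, which reduces quinones with 2 electrons in 1 step, had the smallest adjusted p on the list. On the low diets its scaled log2 signal was -2.55 at the lowest, -1.83 at the median and -1.66 at the highest, and on the high diets it was -0.57, 0.06 and 0.72. The sides did not overlap, and the 3 arrays at 5000 ppm (0.28, 0.49 and 0.72) all lay above the 3 at 2500 ppm (-0.16, -0.57 and -0.43). Nqo1 rose 3.98-fold (1.99 ± 0.14 log2, SE, 6 arrays a side, limma adjusted p = 0.000152).

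The glutathione S-transferases couple glutathione to reactive molecules. Gsta2 ran from -0.93 to -0.35 on the low diets with a median of -0.42, and from 0.44 to 2.54 on the high diets with a median of 1.36. None of its high arrays came within the range of the low ones, and it rose 3.94-fold (1.98 ± 0.16, adjusted p = 0.000251). Gstm1 rose 1.75-fold (0.81 ± 0.13) and Gsta3 1.73-fold (0.79 ± 0.13), also with no overlap. A second probe of the same Gstm1 transcript lay at -0.24 (adjusted p = 0.806 with every probe tested by itself), so the rise of Gstm1 rests on 1 of its 2 probes. Gstm3 (0.78 ± 0.15, adjusted p = 0.0680) had sides that did not overlap but did not pass, whereas Gstp1, at -0.52 ± 0.44, Gsta4, at -0.14 ± 0.38, and Gstm4, at -0.11 ± 0.45, lay below 0, all 4 named after their values were seen.

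Gm10639, a gene model chosen after its value was seen, as were the probes that follow, rose 4.0-fold (2.0 ± 0.15, adjusted p = 0.000169), from a low median of 0.96 to a high median of 2.77. In the GRCm38.p6 annotation it lies on chromosome 9 near Gsta2, with only Omt2a and Omt2b listed between them. The highest rise of any called feature belonged to a probe that the array's annotation gives by position only, chr9:78107225-78118850 on the plus strand in mm9. Its signal ran from -3.30 to -2.55 on the low diets and from -1.19 to 1.58 on the high diets, an 8.55-fold rise (3.1 ± 0.18, adjusted p = 4.11e-05). A second such probe, for chr9:78104935-78116974 on the same strand, rose 2.33-fold (1.22 ± 0.12), and since the spans overlap they may not be 2 separate genes. Probes of closely related transferases could bind each other's transcripts, which was not tested.

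Of the glutathione peroxidases on the list 1 rose, whereas Gpx1, at -0.20 ± 0.17, Gpx3, at -0.70 ± 0.45, and Gpx4, at -0.20 ± 0.37, lay below 0 without a call. Gpx2, the glutathione peroxidase of epithelia, ran from 2.85 to 3.48 (median 3.15) on the low diets and from 3.83 to 5.41 (median 4.63) on the high diets, a 2.93-fold rise (1.55 ± 0.16, adjusted p = 0.00239). Srxn1, which repairs oxidised peroxiredoxins, rose 2.15-fold (1.11 ± 0.14) from a low median of 2.68 to a high median of 3.96, and Txnrd1, a thioredoxin reductase, rose 1.94-fold (0.96 ± 0.12) from 2.76 to 3.75. For all 3 genes the highest low array lay under the lowest high array. Gclc, the catalytic subunit of the enzyme that starts glutathione synthesis, rose 1.98-fold (0.99 ± 0.17, adjusted p = 0.0377), but 2500 ppm mouse 3, at 3.46, lay below 2 low arrays, which reached 3.65. Its modifier subunit Gclm (0.41 ± 0.11, adjusted p = 0.185) did not pass, nor did Gss, the next enzyme of the pathway (0.88 ± 0.17, adjusted p = 0.0670), nor Hmox1, a heme oxygenase (0.10 ± 0.14, adjusted p = 0.726). These 3 and the peroxidases that did not pass were named after their values were seen.

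Reductases and oxidases of aldehydes and other carbonyls were the next set. Aldh3a1, an aldehyde dehydrogenase, ran from 2.43 to 3.66 (median 2.77) on the low diets and from 3.89 to 5.0 (median 4.85) on the high diets, and rose 3.55-fold (1.83 ± 0.21, adjusted p = 0.00779). Cbr3, a carbonyl reductase, rose 2.20-fold (1.14 ± 0.14) and Aox1, an aldehyde oxidase, 2.03-fold (1.02 ± 0.13). Osgin1, an oxidative stress induced growth inhibitor, rose 1.77-fold (0.82 ± 0.11). These 4 genes had no overlap between sides.

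Ester cleavage is a known first step of pyrethroid breakdown. Of 11 tested carboxylesterases 2 rose, beside 0.15% of all features. Ces1g, which is also on the Nrf2 list, ran from -1.95 to -1.01 on the low diets and from -0.63 to 1.01 on the high diets and rose 3.22-fold (1.69 ± 0.28, adjusted p = 0.0377). Ces1e rose 1.62-fold (0.70 ± 0.11), within a narrow range on each side (0.07 to 0.53 and 0.87 to 1.16). Ces1g lost its call in 16 of 28 alternative fits and Ces1e in 15, and several other named genes lost theirs about as often or more, as listed below under processing. The other 9 did not pass, and the median over the 11 was 0.05 log2. Of 7 glucuronosyl and sulfo transferases 1 rose, beside 0.15% of all features. This was Ugt1a6a (2.45-fold, 1.29 ± 0.20, adjusted p = 0.0245), although 2500 ppm mouse 3 at -3.40 lay within the low range of -4.14 to -3.33. Its call was lost in 14 of 28 alternative fits. Ugt1a6b, chosen after its value was seen, rose 1.81-fold (0.86 ± 0.12) with no overlap, from 3.87 to 4.44 on the low diets to 4.94 to 5.27 on the high diets. These transferases share exons, and so the 2 probes may not measure separate transcripts. The other 2 Ugt1a6b probes lay at 0.33 and 0.19 and did not pass.

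**Figure D2:**
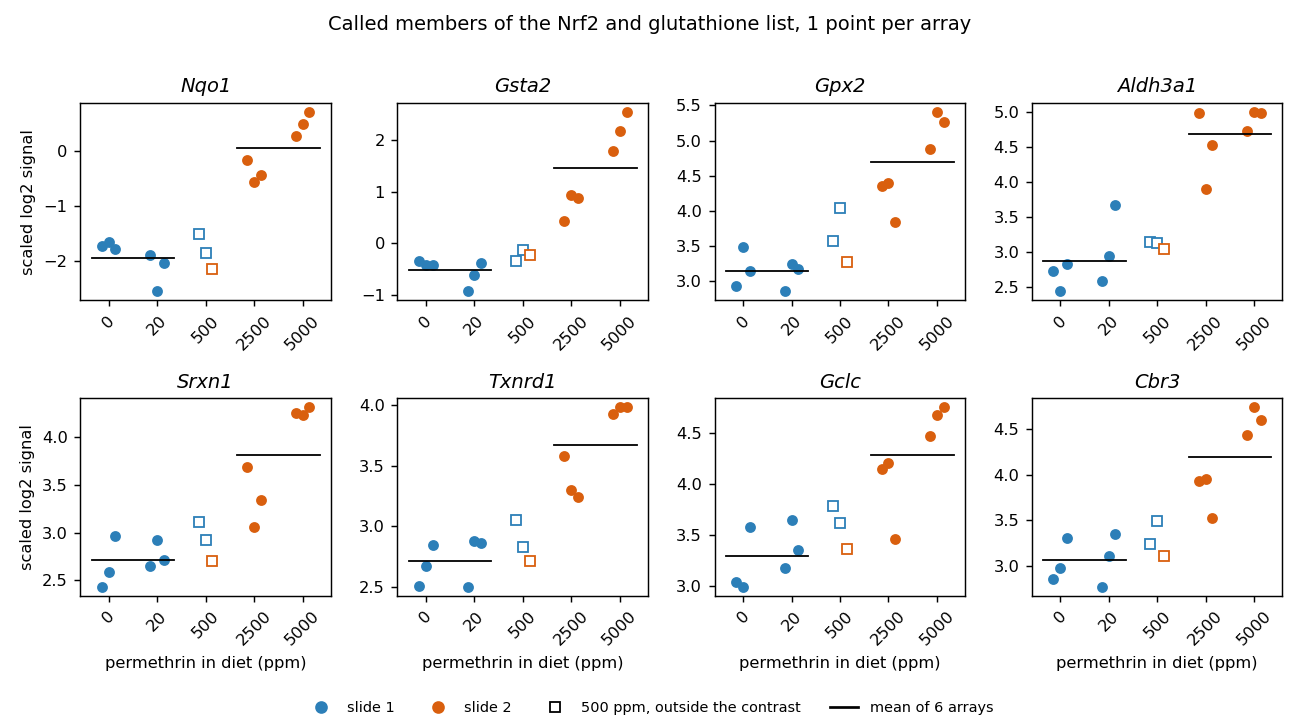
Scaled log2 signal (y axis) of 8 genes is shown by diet (x axis, ppm), with 1 point per array, coloured by slide; squares are the arrays at 500 ppm and lines are the means of the 6 low and the 6 high arrays. In 7 of the 8 panels the low and high arrays do not overlap, Gclc being the other, and the arrays at 500 ppm lie nearer the low line, except Gpx2 in mouse 2 (4.03).

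Of the 42 list members, 41 had a higher mean at 5000 than at 2500 ppm, a difference within slide 2, beside 17585 of all 31334 features. Abcc1, a glutathione conjugate exporter, was the other (-0.26). The median over the list was 0.36 log2 against 0.04 over all features. Other lists shifted too. All 31 ribosomal protein genes were higher at 5000 ppm (median 0.22), as were 25 of 28 oxidative phosphorylation genes (0.14). Natural killer and cytotoxic cell markers had a median of 0.49, whereas only 6 of 19 ciliated markers were higher (-0.04). All 13 genes that rose lay further above the low side at 5000 than at 2500 ppm, 8 of them with an unadjusted p under 0.05. For 9 of the 13 the 3 arrays at 5000 ppm all lay above the 3 at 2500 ppm. That held for 16 of all 33 genes with a symbol that rose, these 9 included, and was not counted over all features. In this contrast 1.92% of all features were higher and 3.5% lower at an unadjusted p under 0.05. No list member passed after adjustment. Gsta2 differed by 1.42 ± 0.22 (adjusted p = 0.201), Gpx2 by 0.99 ± 0.22, Srxn1 by 0.91 ± 0.20 and Nqo1 by 0.88 ± 0.20 (each with an adjusted p of 0.579). Aox1, at 0.14 ± 0.18, differed by less than its error. This contrast uses the same arrays and the same estimate of spread as high against low. The array of 2500 ppm mouse 3, which array weights set at 0.219 against 1.45 to 1.78 at 5000 ppm, enters both differences.

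Within slide 1, mice 1 and 2 at 500 ppm had a median difference from the low side of 0.23 log2 over the list, against 0.04 over all features. Of the 42 members 30 lay above 0, beside 18049 of all 31334 features. Medians of other lists were larger, as in markers of adipocytes (0.93), cardiac muscle (0.42) and ciliated cells (0.27), or lower, as in cell cycle genes (-0.38). No list member passed at 500 ppm, where 1.48% of all features were higher and 1.85% lower at an unadjusted p under 0.05, and the contrast shares its 6 low arrays with high against low. For 11 of the 13 genes all 3 arrays at 500 ppm, on both slides, lay nearer the low mean than the high mean. The same held for 10 of the 34 other features called higher (29.4%), 28 of all 83 called (33.7%) and 12.1% of all features. None of the 13 had 500 ppm mice 1 and 2 near the low mean and mouse 3 near the high mean. That slide-like pattern was seen in 19.3% of all features and in 21 of the 83 called ones (25.3%). Nqo1 in 500 ppm mouse 3, the array on slide 2, was -2.14, within the low range. The median over the list between 20 ppm and control was 0.00.

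**Figure D3:**
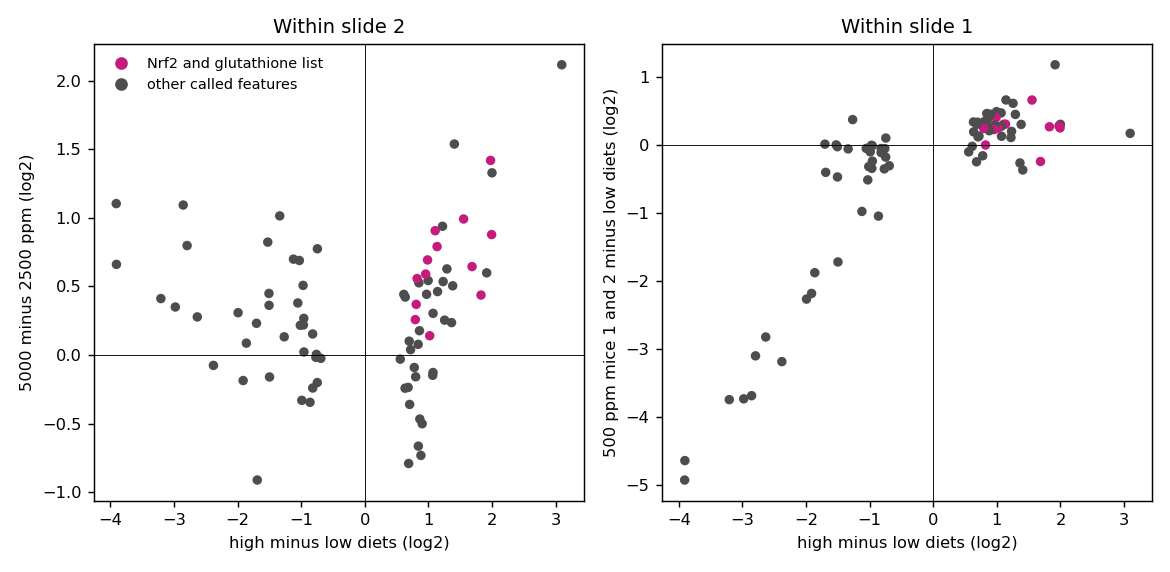
For the 83 called features the difference between high and low diets (x axis, log2) is plotted against 2 differences within a slide (y axes, log2), 5000 minus 2500 ppm on the left and 500 ppm mice 1 and 2 minus the low side on the right. All pink points, the 13 genes of the Nrf2 and glutathione list, lie above 0 on the left; the low arrays are shared between both axes on the right, where the points at the lower left lie between -1.04 and -4.92.

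Markers of airway cells moved in the same direction, without a call. For ciliated cells 18 of 19 markers lay above 0 with a median of 0.45 log2 and none was called. Over all features 64.7% lay above 0. Of the 19, 10 had an unadjusted p under 0.05 (9.55% of all features were higher at that level), and their summed linear signal, in multiples of the 75th percentile, ran from 149 to 225 on the low side and from 196 to 301 on the high side. Club cell markers had 13 of 15 above 0, a median of 0.26 and summed signals of 1936 to 3088 and 2567 to 4807. The defining markers themselves differed little, Foxj1, the master factor of ciliated cells, by 0.09 ± 0.22 (adjusted p = 0.859) and Scgb1a1 by 0.23 ± 0.15 (adjusted p = 0.467). What part these markers have in the rise of the metabolic genes was not tested.

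Genes of Nrf2, its partners and its regulators did not pass, and what part Nrf2 has in the rises was not tested. None of 10 tested regulators, among them Nfe2l2, which encodes Nrf2 (0.13 ± 0.13), and Keap1 (0.19 ± 0.12), was called, both named after their values were seen. The largest of the 10 was Sqstm1, an autophagy receptor that binds Keap1 (0.37 ± 0.16, adjusted p = 0.334).

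Antioxidant response elements have the core letters TGACNNNGC. RefSeq promoters (GRCm38.p6, 250 bases before and 50 after a gene's start, some genes with several windows) were searched for these letters on both strands, and a gene counted if any of its windows held them. Of 33 called genes that rose and have a symbol, 24 had a promoter in the table and 9 of these held the motif (37.5%). It was held by 3 of 11 called list members (27.3%), by 7 of 24 list members not called (29.2%), by none of 9 genes that fell and by 2257 of 14255 tested genes with a promoter (15.8%). A match describes letters in this window alone, and genes with more windows have more letters to match. The promoters of 3 list members that rose and of Ikbkg, an adaptor of the NF-kappaB kinase, are shown because they hold the motif, which stands in capitals as it reads on the gene's own strand (the reverse complement GCNNNGTCA in Srxn1, Txnrd1 and Ikbkg).
Srxn1, chr2:152105274-152105573, plus strand: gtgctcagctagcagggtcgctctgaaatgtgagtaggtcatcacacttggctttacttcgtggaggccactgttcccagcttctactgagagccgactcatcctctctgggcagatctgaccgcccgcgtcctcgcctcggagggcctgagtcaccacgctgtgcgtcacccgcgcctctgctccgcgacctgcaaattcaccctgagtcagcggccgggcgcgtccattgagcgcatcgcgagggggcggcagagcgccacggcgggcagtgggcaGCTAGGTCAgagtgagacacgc
Txnrd1, chr10:82858956-82859255, plus strand: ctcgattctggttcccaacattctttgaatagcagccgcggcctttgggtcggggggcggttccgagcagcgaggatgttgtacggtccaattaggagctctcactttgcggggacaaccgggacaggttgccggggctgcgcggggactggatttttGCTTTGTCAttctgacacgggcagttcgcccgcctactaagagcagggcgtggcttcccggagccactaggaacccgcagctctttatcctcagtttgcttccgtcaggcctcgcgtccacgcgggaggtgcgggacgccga
Gsta3, chr1:21240335-21240634, plus strand: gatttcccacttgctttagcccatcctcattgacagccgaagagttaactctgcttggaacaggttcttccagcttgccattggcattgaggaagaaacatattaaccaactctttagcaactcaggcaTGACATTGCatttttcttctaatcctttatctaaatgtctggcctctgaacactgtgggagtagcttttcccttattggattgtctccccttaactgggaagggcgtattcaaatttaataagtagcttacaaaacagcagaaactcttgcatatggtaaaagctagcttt
Ikbkg, chrX:74424362-74424661, plus strand: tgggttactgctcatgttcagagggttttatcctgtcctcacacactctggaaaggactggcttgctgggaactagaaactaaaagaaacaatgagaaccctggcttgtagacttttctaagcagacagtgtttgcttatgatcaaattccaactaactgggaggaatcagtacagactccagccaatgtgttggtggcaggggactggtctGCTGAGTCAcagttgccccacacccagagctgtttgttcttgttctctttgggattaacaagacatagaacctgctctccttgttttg
The motif's first base on this strand lay 92 bases before the start in Txnrd1, 121 before it in Gsta3 and 38 before it in Ikbkg, and at base 29 of the transcript in Srxn1. Ikbkg, chosen after its value was seen, rose 1.53-fold (0.61 ± 0.10, adjusted p = 0.0330), with arrays from -1.77 to -1.53 on the low diets and from -1.35 to -0.72 on the high diets. Its other 2 probes lay at 0.06 and -0.38 (adjusted p = 0.885 and 0.647 with every probe tested by itself), so the rise rests on 1 of 3 probes.

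Outside xenobiotic metabolism, the largest rise of a named gene was that of Cxcl5, a chemokine that attracts neutrophils. It ran from -2.54 to -0.54 (median -0.83) on the low diets and from 0.05 to 1.20 (median 0.94) on the high diets, a 3.77-fold rise (1.92 ± 0.27, adjusted p = 0.0125) with no overlap. Within slide 1, 500 ppm mice 1 and 2 had 0.65 and -0.55, and their difference from the low side was 1.18 ± 0.41 (adjusted p = 0.968). Cxcl5 was the only one of 21 inflammatory cytokines and chemokines called, the list's median was 0.07, and of 14 neutrophil markers none was called (median 0.06, with Ltf, which encodes lactoferrin, at 1.06 ± 0.92).

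Other genes rose singly. Sfn, which encodes 14-3-3 sigma, a protein of stratified epithelia, ran from 1.58 to 2.24 on the low diets and from 2.5 to 3.61 on the high diets and rose 2.35-fold (1.23 ± 0.18). It was the 1 called member of 15 mucous and keratin markers, whose median was 0.30. Tmprss13, a membrane serine protease, rose 2.39-fold (1.25 ± 0.22, adjusted p = 0.0492), Kcna6, a voltage-gated potassium channel, 2.61-fold (1.38 ± 0.19) and Entpd5, which hydrolyses nucleoside diphosphates in the endoplasmic reticulum, 2.10-fold (1.07 ± 0.13). Kcna6 in 500 ppm mouse 3 stood at 0.33, near the high side, while mice 1 and 2 at 500 ppm had -0.91 and -0.44. Entpd5 had no overlap, with 0.36 to 0.82 on the low diets and 1.29 to 1.92 on the high diets.

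Genes better known for peptides of appetite were among the rises. Agrp, which encodes a melanocortin antagonist, ran from -1.15 to -0.60 on the low diets and from -0.27 to 0.63 on the high diets, 2.21-fold higher (1.14 ± 0.15, adjusted p = 0.0106). Ghrl, which encodes ghrelin, rose 1.96-fold (0.97 ± 0.16, adjusted p = 0.0377) from a median of -0.02 to 1.0, and was chosen after its value was seen. Eid3, a subunit of the SMC5/6 complex, rose 2.10-fold (1.07 ± 0.13) from a median of -3.19 to -2.18. Within slide 2, Eid3 at 5000 ppm differed from 2500 ppm by -0.13 ± 0.18. Eid3 in 500 ppm mouse 3, the only array at 500 ppm on slide 2, was -1.95, in the high range, against -3.01 and -2.87 in mice 1 and 2. Slide and that single array cannot be told apart here.

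Stxbp4, a syntaxin binding protein chosen after its value was seen, rose 1.61-fold (0.69 ± 0.12, adjusted p = 0.0485), more at 2500 than at 5000 ppm. Its 3 arrays there stood at -1.99, -2.02 and -2.40, and those at 5000 ppm at -2.77, -3.12 and -2.91, against -3.44 to -2.98 on the low diets. A second Stxbp4 probe lay at 0.24 and did not pass. Over the 47 features that rose, 34 were higher at 5000 than at 2500 ppm, 17 of them at an unadjusted p under 0.05, and 6 differed the other way at that level. Of the 36 that fell, 10 lay lower at 5000 than at 2500 ppm, none of these at an unadjusted p under 0.05, and 6 differed the other way at that level.

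The largest fall of a named gene was that of Cwc22, a spliceosome factor whose gene is known to lie in a duplication of variable copy number in mice. Its signals were 2.57, 2.05 and 1.47 in the control mice, 3.46, 1.96 and 2.92 at 20 ppm, -0.83, -0.91 and -0.61 at 2500 ppm and -0.56, -0.53 and 1.13 at 5000 ppm. The sides did not overlap, but 5000 ppm mouse 3 stood well above the other 5 high arrays, and Cwc22 fell by 2.79 ± 0.34 log2 (6.94-fold lower, adjusted p = 0.00779). At 500 ppm all 3 mice, on both slides, had low signals (-0.69, -0.69 and -0.43), and within slide 1 mice 1 and 2 differed from the low side by -3.1 ± 0.46 (unadjusted p = 1.44e-05, adjusted p = 0.151). None of the other 24 spliceosome and exon junction genes was called.

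Another 11 called features, none with a symbol, shared this order of the arrays. Together with Cwc22 they were the 12 called features in which all 3 arrays at 500 ppm lay nearer the high mean, 14.5% of the 83 beside 16.5% of all features, so the count itself is near the background. The 12 were picked by this position, and the order of the arrays that follows is a description. All 12 fell, by 0.86 to 3.91 log2. In 11 of the 12 all 9 arrays at 500, 2500 and 5000 ppm lay below all 6 low arrays. This order was not counted over all features, and 34 of all 36 features that fell had high and low sides that did not overlap. In 10 of the 12 the highest of those 9 was 5000 ppm mouse 3, and in 9 of the 12 the highest low array was 20 ppm mouse 1. Within slide 1 their differences at 500 ppm ran from -1.04 to -4.92 log2. Some of the 12 share an annotated transcript identifier with another, so by the annotation they are fewer than 12 separate transcripts. Probes that bind the same transcripts would move together, and whether the rest do so was not tested.

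Ltb4r2 and Nmur1, both receptors, fell as well. Ltb4r2, a receptor for leukotriene B4 and related lipids, ran from -2.26 to -1.43 on the low diets and from -4.03 to -2.66 on the high diets and fell 2.53-fold (-1.34 ± 0.16, adjusted p = 0.00779). Its 3 arrays at 2500 ppm (-3.42, -3.83 and -4.03) lay below the 3 at 5000 ppm (-2.66, -2.66 and -2.92), a difference of 1.01 ± 0.23 (adjusted p = 0.579). In 500 ppm mice 1 and 2 it stood at -1.92 and -2.02, within the low range, and in mouse 3 at -3.0, within the high range. The other 8 tested genes of leukotriene synthesis and reception were not called. Nmur1, a neuromedin U receptor that in mice is known from group 2 innate lymphoid cells, fell 2.88-fold (-1.53 ± 0.26, adjusted p = 0.0381), from -2.69 to -1.80 on the low diets to -4.80 to -3.13 on the high diets. For Nmur1 all 3 arrays at 500 ppm (-2.16, -2.21 and -2.61) lay within the low range.

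Bgn, which encodes the matrix proteoglycan biglycan, ran from 0.74 to 1.45 (median 1.17) on the low diets and from 0.01 to 0.49 (median 0.08) on the high diets and fell 1.95-fold (-0.97 ± 0.14, adjusted p = 0.0135). At 500 ppm mice 1 and 2 had 0.85 and 0.73 and mouse 3, the only array at 500 ppm on slide 2, had 0.20. Bgn was the only called gene of 28 collagens and matrix genes, whose median was 0.09. Dhrs13os, an antisense transcript, fell 2.84-fold (-1.51 ± 0.25, adjusted p = 0.0348) by 1 probe, while a second probe of Dhrs13os lay at 0.23 (adjusted p = 0.533 with every probe tested by itself).

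Receptors of smell and pheromones lay near the floor of the arrays. Olfr665 (-1.69 ± 0.30, 3.23-fold lower) and Olfr1280 (-0.96 ± 0.13) fell, each well above background on 6 low arrays and on 1 high array, so their folds rest on dim signals. Vmn2r4 fell by 0.76 ± 0.11 log2 and was well above background on all 12. Of the 36 features that fell, 13 had the slide-like pattern at 500 ppm, 12 had all 3 arrays at 500 ppm nearer the high side and 7 nearer the low side, against 8, 0 and 21 of the 47 that rose. Over all features these patterns made up 19.3%, 16.5% and 12.1%.

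**Figure D4:**
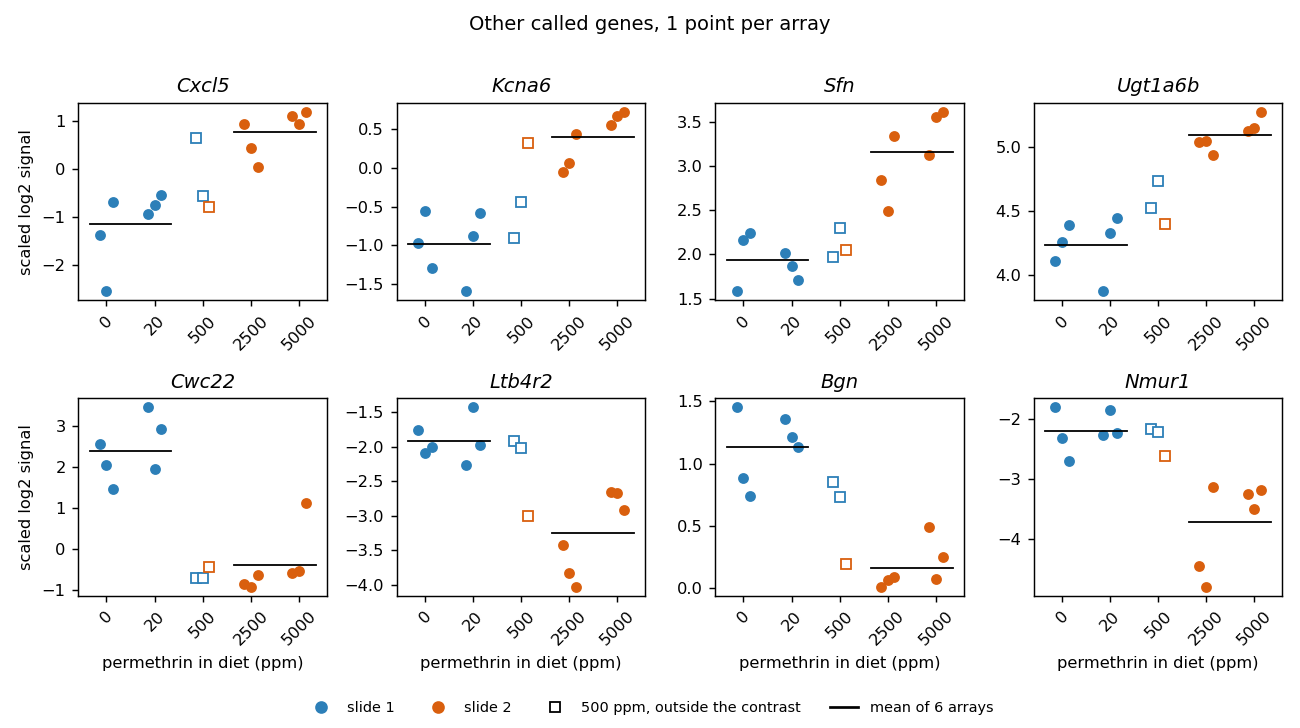
Scaled log2 signal (y axis) of 4 genes that rose (top row) and 4 that fell (bottom row) is shown by diet (x axis, ppm), with 1 point per array, coloured by slide; squares are 500 ppm and lines are the means of 6 arrays. Cwc22 is low at 500 ppm on both slides. For Ltb4r2 and Bgn the arrays of 500 ppm mice 1 and 2 lie nearer the low line and that of mouse 3, the only one on slide 2, nearer the high line. Slide and that single array cannot be told apart.

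Without a symbol were 38 of the called features, 14 that rose and 24 that fell. Besides those described, the span chr5:149775338-149781472 on the minus strand (mm9) fell 1.61-fold (-0.69 ± 0.10, adjusted p = 0.0179), from -2.03 to -1.45 on the low diets to -2.61 to -2.29 on the high diets, with a difference between 5000 and 2500 ppm of -0.02 ± 0.15. A probe for chr13:34186976-34210579 (mm9) was not well above background on any high array and was at least 1.43-fold lower there (measured means -4.29 and -5.32). Elsewhere on the array, 11 of the called genes with a symbol had 15 further probes, of which 12 moved the same way, 3 the opposite way and 4 passed on their own.

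Most other gene lists gave no call. Of the 46 lists 37 had no member called and 9 had at least 1, and 25 of the 45 called genes with a symbol were on no list. Of 12 voltage-gated sodium channel genes, which encode the target of permethrin, none was called, with a median of -0.09 and the largest difference in Scn2a (0.45 ± 0.15, adjusted p = 0.255). Among 7 genes of the aryl hydrocarbon receptor 2 rose, beside 0.15% of all features. These were Aldh3a1, also on the Nrf2 list, and Ugt1a6a, also on the list of transferases, both counted there already. Cyp1a1, the classic target of this receptor, had a difference of -1.02 ± 0.30 (adjusted p = 0.218), which passed without 2500 ppm mouse 1 (-1.33, adjusted p = 0.0257). The 16 genes of the receptors CAR and PXR had no call, with Cyp2b10, the classic CAR target, at 0.31 ± 0.18 (adjusted p = 0.438), and neither had the 24 other phase I enzymes of lung, with Cyp2a5 at 1.03 ± 0.36 (adjusted p = 0.275). For 32 cell cycle genes the median was -0.03 and Mki67, a marker of dividing cells, stood at -0.16 ± 0.21 (adjusted p = 0.716).

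**Figure D5:**
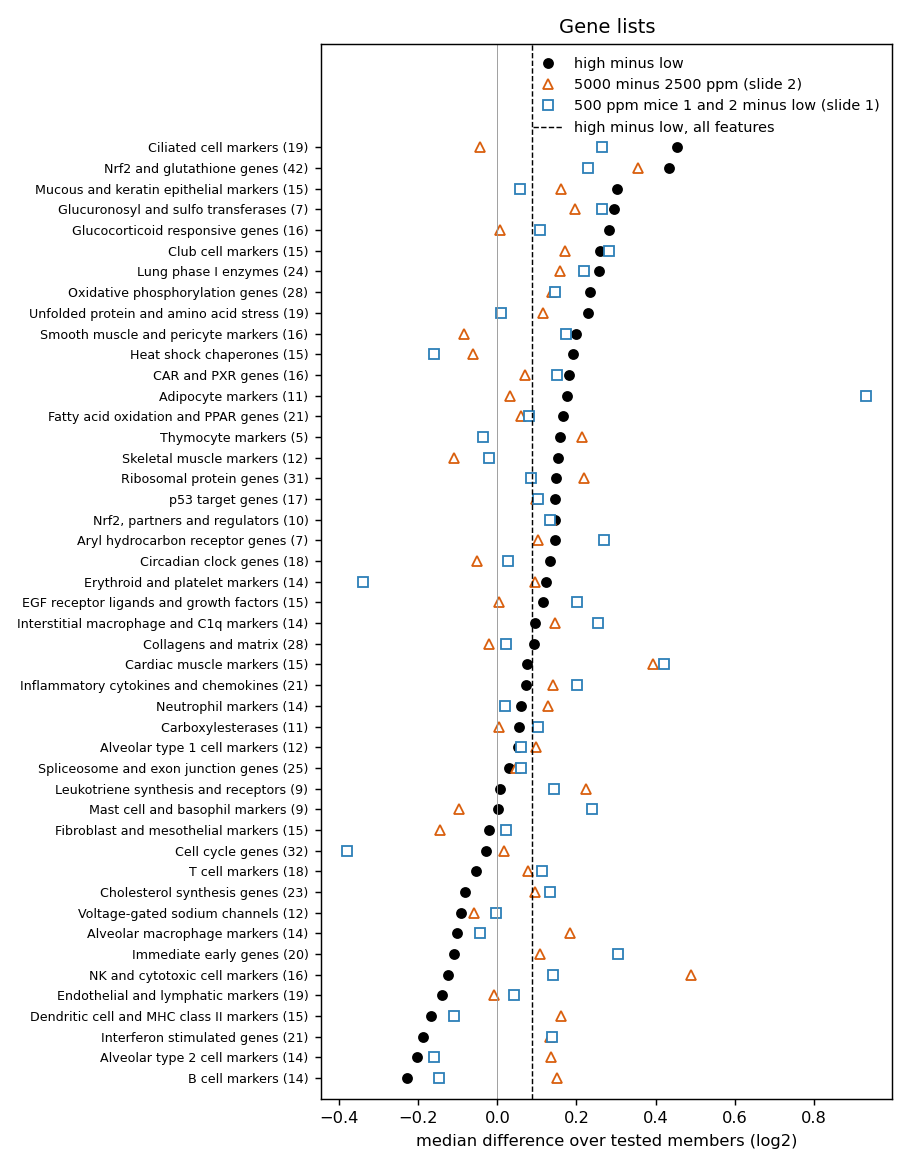
Each row is a gene list with its number of tested members, and the x axis is the median difference over them (log2) for high minus low diets (black), 5000 minus 2500 ppm (orange) and 500 ppm mice 1 and 2 minus the low side (blue). The Nrf2 and glutathione list has black, orange and blue medians of 0.43, 0.36 and 0.23, and the ciliated list 0.45, -0.04 and 0.27; the dashed line is the median over all features (0.09).

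The contrasts within a slide gave few calls by themselves. Between 5000 and 2500 ppm 1 feature passed (0.00319%), a probe without a symbol that was lower at 5000 ppm (-2.93 ± 0.33, adjusted p = 0.0449), and 603 were higher and 1098 lower at an unadjusted p under 0.05. Between 20 ppm and control none passed with limma, and 609 had an unadjusted p under 0.05. Mice 1 and 2 at 500 ppm against the low side gave none, with 1045 at an unadjusted p under 0.05. With array weights these counts were 564, 18 and 34.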

How the data were processed

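Lung RNA was labelled with Cy3 and scanned, 1 array per biological replicate. The authors deposited Agilent Feature Extraction 10.7.3.1 output, in which processed signal is a background-subtracted intensity, per the file headers. The deposited value table holds log2 values of the same arrays and served as an alternative. Control spots and 49 probes with outlier flags were left out. Processed signal was taken to log2 and set against each array's 75th percentile. Probes well above background on all 6 arrays of either side were kept (39344), and genes with several probes took the brightest, leaving 31334 features. Names came from the files and a RefSeq table (34642 of 35678 accessions matched). limma 3.58.1 in R 4.3.3 fitted 1 coefficient per diet to the 12 arrays, with Benjamini-Hochberg adjustment over all features. The 500 ppm mice on slide 1 were compared with the low side in a diet and slide model of 15 arrays. Errors are limma SEs. The number of arrays limits the precision. The labels number biological replicates, read here as 1 mouse per array, so p-values measure spread between mice of a diet. Spread between slides is not part of the error for high against low. Samples, members and lists were chosen with earlier results of these data known. Named were the 14 largest rises and all falls, which were fewer than 14, with non-overlapping sides and a true symbol. Also named were up to 3 called members per list or else its largest, the leading genes of contrasts within a slide, and 8 fixed genes. Alternatives changed the scale, background, filter, probe choice, model and arrays. One called gene enters the counts but is not reported here by itself. The fitting code was tested on simulated data.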

Additional observations from a re-analysis of the deposited data

Results flagged for a closer look

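Within the 6 arrays of a side, 5 of 96 groups of values of called features and 1 of 12 groups of quality measures had a single array set apart from the rest, and chance gives about 1 in 20. Cwc22 in 5000 ppm mouse 3 stood at 1.13, above the other 5 high arrays. Tmprss13 in 20 ppm mouse 3 stood at -2.71, below the other low arrays. Ugt1a6a in 2500 ppm mouse 3 was -3.40 and Dhrs13os in 2500 ppm mouse 2 was -3.83, each the lowest on the high side. For 9330182O14Rik the lowest high array was 5000 ppm mouse 1, at -5.06. The variation between replicate probes was 8.41% on the array of 2500 ppm mouse 3. A probe without a symbol differed between the 2 high diets by -2.93 ± 0.33 log2 (5000 minus 2500 ppm, limma adjusted p = 0.0449), while its difference between high and low diets was -0.41 (adjusted p = 0.424).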

How the results depend on the processing

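Slide and side cannot be told apart within the 12 arrays, and the causes of the shifts below were not tested. The count of 83 became 41 with normexp background correction, 51 with no filter, 45 with a log2 difference of at least 1 as well, 1296 with array weights, 6 with slide as a random block and 4107 with slide as a fixed block. The count of 13 Nrf2 and glutathione genes became 3 with the random block, 21 with array weights and 8 with the log2 minimum. With array weights the counts within slides were 564 for 5000 against 2500 ppm, 18 for 20 ppm against control and 34 for 500 ppm against low; the first, 1 in the report, was 2 with the array median as scale or a filter on all 12 arrays, and 0 with quantile normalization or no filter. Leaving out 1 array gave 38 to 128 for the first count, 8 to 13 for the list, 0 to 1 for 5000 against 2500 ppm, 0 to 10 for 500 ppm (10 without 20 ppm mouse 2) and 0 for 20 ppm. The first count was 39 and 40 without 5000 ppm mice 2 and 1, 45 without control mouse 2, 47 without 2500 ppm mouse 1, and 48 on dropping control mouse 1 or 20 ppm mouse 2. Without both low mice numbered 1 it was 16 and the list 5, and also without 2500 ppm mouse 3 it was 121. The replicate block gave 62 calls and 11 on the list, and 17 of 47 followed calls no longer passed. Like-numbered arrays had a median correlation of deviations of 0.005 over 18 pairs, 5 of them over 0.1, among these all 3 pairs of control and 20 ppm (0.65, 0.30 and 0.20), so the numbers were not taken to pair the samples across the sides. Of 47 called features followed, 19 kept their call in all 12 fits with 1 array left out and 6 passed under every alternative run. Calls were lost in 22 of 28 alternatives for Stxbp4, 20 for Tmprss13, 19 for Ikbkg and 17 each for Gclc and Nmur1. Of the same 28 they were lost in 16 for Gstm1 and Dhrs13os, 15 for Ghrl and 14 for Gsta3. Olfr665 lost its call in 21 of 27 and 9330182O14Rik in 19 of 27. Of the 47 followed, 2 reversed, both with the fixed block: Gm16596 (-0.80) and Vmn2r4 (0.050). Of genes not called, this block reversed Atrn (-0.45), Cxcl10 (0.24), Hspb8 (0.16), Itga2 (-0.19), Myh1 (-2.50), Olfr612 (0.22) and Scn2a (-0.67), and the random block Myh1 (-0.10). Others that reversed were Scgb1a1 (-0.017) and Sftpc (-0.11) by quantiles, Olfr612 (0.083) by normexp, Cyp2b10 (-0.16) and Sqstm1 (-0.20) with the mean of probes, and Hspb8 (0.10) and Sftpc (-0.052) with weights. With 1 array left out, Foxj1 ran from -0.042 (without 2500 ppm mouse 3) to 0.24, being -0.0020 without control mouse 3, and Slc17a2 from -0.071 (without 5000 ppm mouse 1) to 0.35. Without both low mice numbered 1, Ddit3 (0.11), Hspb8 (0.34), Rpl8 (0.058) and Tnni3 (0.074) reversed, and also without 2500 ppm mouse 3, Hspb8 (0.24), Rpl8 (0.027), Scgb1a1 (-0.0063) and Sftpc (-0.057). Of 50 named genes not called, 10 passed under some alternative, Ccl24 under 5 and Cyp1a1 without 2500 ppm mouse 1.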

Other observations

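Other lists had members that lay mostly on 1 side of 0 with none called. All 28 tested genes of oxidative phosphorylation were above 0, with a median of 0.23 log2 against 0.09 over all features, of which 64.7% were above 0, and 8 had an unadjusted p under 0.05 (9.55% of all features). Of 14 alveolar type 2 markers 3 were above 0, with a median of -0.20, and Lyz2, which encodes a lysozyme, had a difference of -1.24 ± 0.45 (limma adjusted p = 0.292). Control mouse 1 (4.97) and 20 ppm mouse 1 (4.48) carried much of it: the other 4 low arrays ran from 2.33 to 2.77 and the high arrays from 1.71 to 2.36, and without those 2 mice the Lyz2 difference was -0.50 (adjusted p = 0.182). Ccl24, a chemokine for eosinophils, had sides that did not overlap and a difference of 0.90 ± 0.16 (adjusted p = 0.0522), and in 500 ppm mice 1 and 2 it differed from the low side by 1.26 ± 0.23. Both differences of Ccl24 share the 6 low arrays.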
